A study of Mus musculus with 16 samples.

Results

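The 10 genes described here are the D-type cyclins Ccnd1, Ccnd2 and Ccnd3, their kinases Cdk4 and Cdk6, and 5 inhibitors of these kinases, Cdkn1a, Cdkn1b, Cdkn2a, Cdkn2b and Cdkn2c. They were chosen by symbol from the 20581 genes of the deposited table, as named members of 1 pathway, and all 10 were among the 14217 genes that passed the filter on low values. Bulk RNA-seq was made of primary aortic smooth muscle cells in culture, with 16 libraries in 4 groups of 4. The cells came from male C57BL/6J mice that were either RBC.ARG1-WT or RBC.ARG1-KO, called WT and KO below, and WT mice were littermates of the KO mice. In the KO, floxed Arg1 (arginase 1) is deleted by a Cre transgene driven by the erythropoietin receptor gene, so the deletion is aimed at the red blood cell lineage of the donor mice and not at the cultured cells; Arg1 itself was not analysed here. Which Cre and flox alleles the WT mice carried, and the ages of the mice, are not stated in the labels. Cells of each genotype were kept in DMEM with 10% fetal bovine serum, or were moved at 80% confluency to DIAM for 10 days. DIAM is a lipid-loading medium of DMEM, 0.1 µM dexamethasone, 1 µM insulin and 50 µg/mL L-ascorbic acid, and the labels do not say if serum was part of it. A time in culture is given here for DIAM only. Effects of the additions therefore cannot be told apart from possible differences in culture time, density or serum. All libraries carry the same batch label. The labels do not tie each library to an animal or culture, so the p-values measure the spread between these libraries.

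D cyclins are made in response to growth factors and bind CDK4 or CDK6; the active kinase phosphorylates the retinoblastoma protein, which releases E2F factors and lets the cell pass from G1 into S phase. Proteins of the INK4 family (Cdkn2a, Cdkn2b, Cdkn2c) bind CDK4 and CDK6 alone and block them, whereas CIP/KIP proteins (Cdkn1a, Cdkn1b) bind complexes of cyclin and kinase and also restrain CDK2. In the vessel wall, smooth muscle cells are largely out of the cycle, and they re-enter it after injury and in culture.

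Total estimated counts per library lay between 37221192 and 47626331. The first principal component, which separates the media, held 75.1% of the variance. All 8 smooth muscle markers searched were measured, and their summed level, in CPM (counts relative to the TMM-scaled library size, the scale of all levels below), was 2274 to 3983 in the DMEM libraries and 1049 to 2100 in the DIAM libraries. Acta2 and Tagln led the sums. As group means, Acta2, Tagln, Cnn1 and Smtn were lower in DIAM in both genotypes. Myocd was higher, at 3.91 and 10.04 CPM in WT DMEM and DIAM and 2.49 and 11.6 CPM in KO. Lmod1 means were also higher in DIAM. Myh11 was 108 and 101 CPM in WT and 102 and 158 CPM in KO, and Des also differed in direction between genotypes. The 5 adipocyte markers found in the table summed to 54.2 to 95.05 CPM in DMEM and to 1332 to 2908 CPM in DIAM. Leukocyte markers (5 of 7 in the table, led by Lyz2) summed to 783 to 2169 CPM over all libraries. In bulk RNA, fewer cells of a type and less RNA per cell cannot be told apart.

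The 3 D cyclins moved in different directions between the media. In both genotypes Ccnd1 and Ccnd3 were higher in DIAM and Ccnd2 was lower. Ccnd1 encodes cyclin D1, the D cyclin most closely tied to growth factor and adhesion signals. Its level in WT cells was 211, 223, 219 and 175 CPM in the 4 DMEM libraries and 475, 493, 393 and 335 CPM in the 4 DIAM libraries. The lowest DIAM library thus lay above every DMEM library, and the DIAM group was the more spread of the pair. The log2 fold change was 1.03 ± 0.11 (SE; edgeR quasi-likelihood test, Benjamini-Hochberg adjusted over all genes tested, adjusted p = 6.59e-07). In KO cells Ccnd1 was 188, 203, 214 and 183 CPM in DMEM and 282, 284, 323 and 292 CPM in DIAM. These groups did not overlap either, and the log2 fold change was 0.58 ± 0.11 (edgeR, adjusted p = 0.000203).

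**Figure D1:**
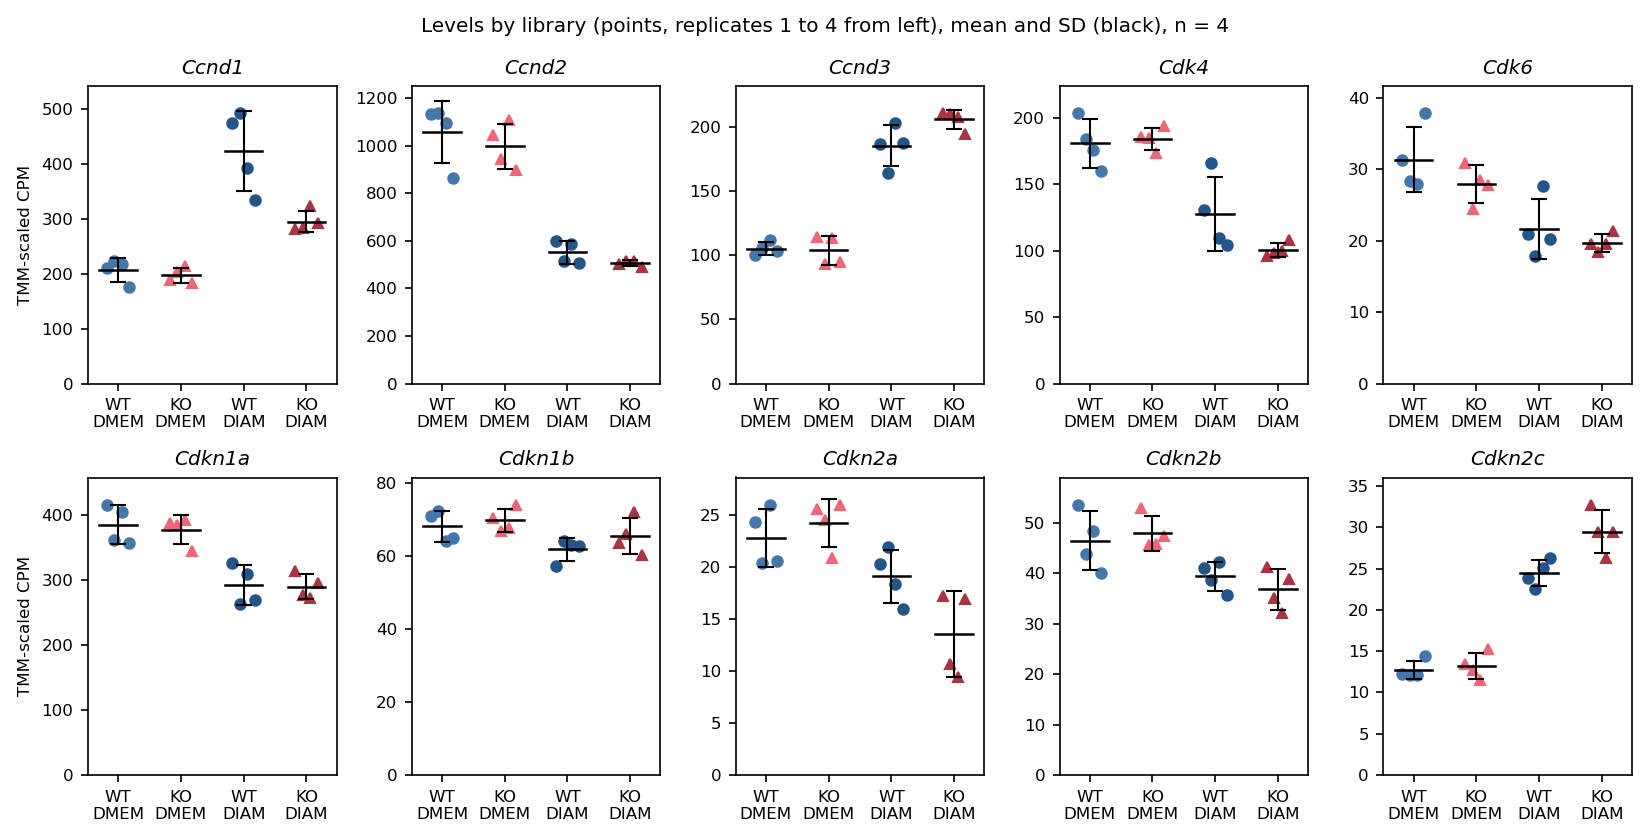
Level of each of the 10 genes in every library (vertical axes, TMM-scaled CPM from 0; horizontal axis, the 4 groups of 4 libraries), with the group mean and SD in black. Ccnd1, Ccnd3 and Cdkn2c sit higher in DIAM, Ccnd2 sits lower, and Ccnd1 in WT DIAM runs from 335 to 493 CPM against 282 to 323 CPM in KO DIAM.

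Ccnd2 encodes cyclin D2 and had the highest count of the 10 genes in every group. Its 4 WT libraries held 1134, 1138, 1097 and 865 CPM in DMEM and 600, 514, 586 and 506 CPM in DIAM. The corresponding KO libraries held 1045, 943, 1107 and 896 CPM in DMEM and 503, 516, 515 and 488 CPM in DIAM. Every DIAM library was thus below every DMEM library, and Ccnd2 fell by 0.94 ± 0.09 on the log2 scale in WT and by 0.98 ± 0.09 in KO (edgeR, adjusted p = 2.52e-07 and 1.27e-07). Ccnd3, which encodes cyclin D3, a D cyclin often kept in differentiating cells, went the other way. It was measured at 99.9, 106, 112 and 103 CPM in WT DMEM and at 186, 164, 203 and 187 CPM in WT DIAM. KO cells held 114, 93.1, 113 and 94.9 CPM in DMEM and 211, 210, 208 and 195 CPM in DIAM. The groups of each pair were well apart, with log2 fold changes of 0.82 ± 0.07 in WT and 0.99 ± 0.07 in KO (edgeR, adjusted p = 1.38e-07 and 1.26e-08).

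The D cyclins can be set against each other only per length. CPM was therefore divided by the length of the longest coding transcript in GENCODE M21 (3740 bases for Ccnd1, 6330 for Ccnd2, 2113 for Ccnd3), a choice that sets the ratio between genes, and with it the shares and the sum, but not the change within one. On that scale Ccnd2 made up 61.3% ± 1.94 (SD, n = 4) of the summed D cyclin level in WT DMEM and 60.7% ± 0.626 in KO DMEM. In DIAM its share was 30.2% ± 1.59 in WT and 31.2% ± 0.481 in KO. The share of Ccnd1 went from 20.3% ± 0.317 to 39.2% ± 4.94 in WT and from 20.4% ± 1.39 to 30.8% ± 1.45 in KO. Ccnd3 went from 18.4% ± 1.93 to 30.6% ± 3.56 in WT and from 18.9% ± 0.927 to 38.0% ± 1.07 in KO. No DIAM library had a share within the DMEM range for any of the 3 genes. The sum per kb overlapped between all 4 groups, at 272 ± 26.7 CPM per kb in WT DMEM, 259 ± 22.4 in KO DMEM, 288 ± 21.7 in WT DIAM and 256 ± 7.72 in KO DIAM. Summed as CPM, where Ccnd2 weighs more, the D cyclins of KO were 1174 to 1435 in DMEM and 975 to 1046 in DIAM, which do not overlap, and those of WT were 1144 to 1466 and 1028 to 1261. As a share of that sum Ccnd2 was 77.1% ± 1.21 in WT DMEM and 47.6% ± 2.61 in WT DIAM, and 76.8% ± 0.702 and 50.2% ± 0.786 in KO. Per kb and within DIAM, Ccnd1 was 34.7% to 45.3% of the sum in the WT libraries and 29.6% to 32.4% in the KO libraries, and Ccnd3 was 26.7% to 34.3% in WT and 37.0% to 39.2% in KO. These shares are descriptions and were given no test.

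**Figure D2:**
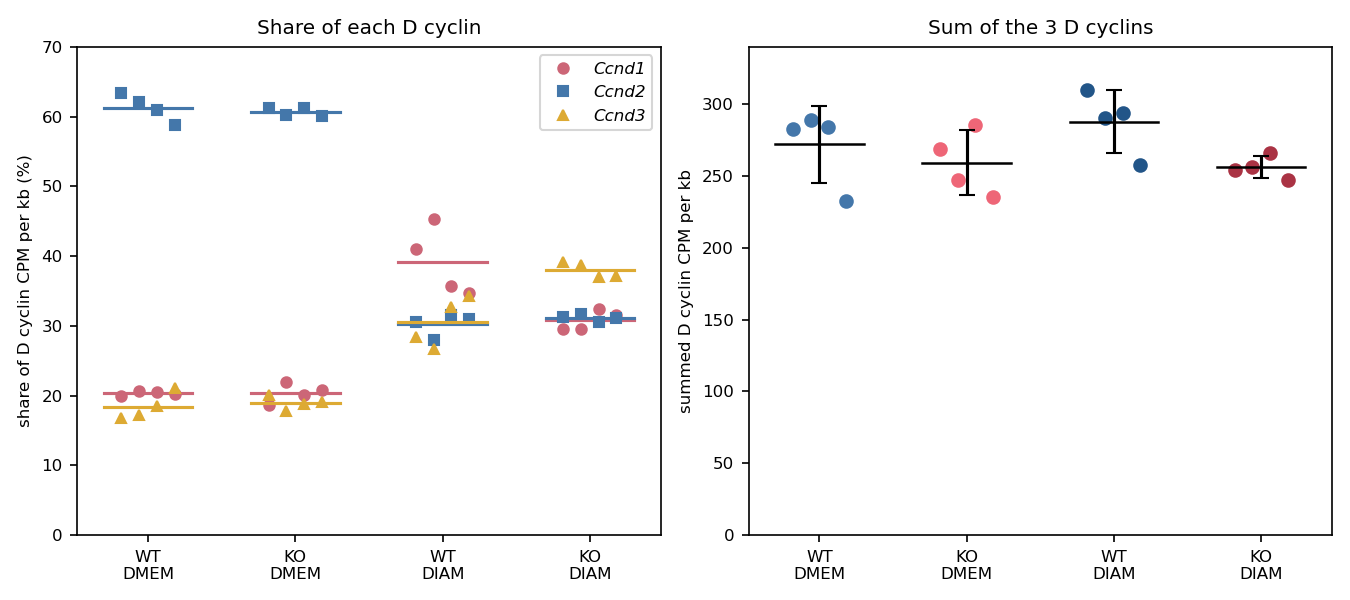
Left, share of each D cyclin in the summed D cyclin level (CPM per kb, percent) in every library of the 4 groups, with a line at the group mean; right, the sum in CPM per kb with mean and SD. Ccnd2 is about 61% of the sum in both DMEM groups and 30% to 31% in both DIAM groups, while the sums per kb overlap.

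Both kinases fell in DIAM. Cdk4 encodes the main partner of the D cyclins in many cell types, and here it made up 96.6% to 97.4% of the per-kb level of Cdk4 plus Cdk6 as group means. That share depends on the lengths used, 2053 bases for Cdk4 and 11525 for Cdk6, whose coding transcripts run from 376 to 11525 bases. In count the gap was smaller, with means of 181 CPM for Cdk4 and 31.4 for Cdk6 in WT DMEM. The level of Cdk4 in WT was 203, 184, 175 and 160 CPM in DMEM and 131, 166, 110 and 104 CPM in DIAM. Library 2 of WT DIAM, at 166 CPM, lay within the DMEM range, so these groups overlapped; Cdk4 fell by 0.50 ± 0.11 on the log2 scale (edgeR, adjusted p = 0.0015). KO cells held 185, 184, 173 and 193 CPM in DMEM and 95.7, 98.1, 99.3 and 108 CPM in DIAM, with no overlap, and Cdk4 fell by 0.88 ± 0.11 (edgeR, adjusted p = 6.98e-06). Cdk6, the other kinase of the pair, was low, with group means of 31.4 ± 4.603 CPM in WT DMEM, 27.9 ± 2.70 in KO DMEM, 21.7 ± 4.19 in WT DIAM and 19.7 ± 1.23 in KO DIAM. It fell by 0.53 ± 0.12 in WT and by 0.50 ± 0.12 in KO (edgeR, adjusted p = 0.00159 and 0.0022). An antisense gene, Cdk6os1, is in the table as well, and the library kit does not keep the strand.

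Promoter windows of RefSeq (GRCm38.p6, 250 bases before to 50 after an annotated start) were found for 8 of the 10 genes, all but Ccnd1 and Ccnd2, with 12 windows in all. They are shown because Myc, which encodes a factor that binds the E-box CACGTG, was 13.0 ± 0.924 CPM in WT DMEM and 34.9 ± 1.81 CPM in WT DIAM, a log2 fold change of 1.42 ± 0.11 (edgeR, adjusted p = 1.56e-08), and both kinase genes have that motif in their window. The letters CACGTG, which read the same on both strands, occurred in 3 of the 12 windows and in 7.15% of all 32851 RefSeq windows of this length. The 3 windows are printed 5′ to 3′ along the gene with the E-box in capitals. That of Cdk4 (chr10:127063285-127063584, plus strand) has 4, at positions -172, -118, -98 and -11 from the start, that of Cdk6 (chr5:3343643-3343942, plus strand) has 1 at -220, and the inner start of Cdkn2c (chr4:109665323-109665622, minus strand) has 1 at 35.
Cdk4: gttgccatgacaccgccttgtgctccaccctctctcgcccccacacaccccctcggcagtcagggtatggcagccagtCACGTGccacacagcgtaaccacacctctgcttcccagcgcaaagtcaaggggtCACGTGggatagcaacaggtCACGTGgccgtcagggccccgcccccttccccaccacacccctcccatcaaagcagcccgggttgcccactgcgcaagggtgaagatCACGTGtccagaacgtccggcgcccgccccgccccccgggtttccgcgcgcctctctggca
Cdk6: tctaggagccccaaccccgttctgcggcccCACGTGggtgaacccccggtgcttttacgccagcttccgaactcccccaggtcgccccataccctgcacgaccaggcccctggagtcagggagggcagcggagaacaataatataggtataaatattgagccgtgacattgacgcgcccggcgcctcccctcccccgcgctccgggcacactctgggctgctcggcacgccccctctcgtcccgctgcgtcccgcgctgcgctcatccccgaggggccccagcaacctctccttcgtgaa
Cdkn2c: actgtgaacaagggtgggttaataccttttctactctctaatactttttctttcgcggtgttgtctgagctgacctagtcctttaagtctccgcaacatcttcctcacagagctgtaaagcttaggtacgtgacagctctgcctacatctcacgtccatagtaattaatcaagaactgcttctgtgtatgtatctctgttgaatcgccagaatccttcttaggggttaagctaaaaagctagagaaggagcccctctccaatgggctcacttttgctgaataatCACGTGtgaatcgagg
Cdk4 and Cdk6 fell in DIAM and Cdkn2c rose, so the genes with the motif, among the 8 with a window, did not share a direction. For E2F, only the forms TTTCGCGC and TTTGGCGC were searched, on either strand, and they were in none of the 12 windows and in 0.813% of all. Other forms were not counted, and the letters TTTCCCGC, for example, do occur in a window of Cdkn2a. The windows are thus not shown to lack E2F sites. The glucocorticoid response element (AGAACA and TGTTCT with 3 bases between them) was in none of the 12 and in 0.00913% of all. That full form is so rare, in 3 of the 32851 windows, that its absence from 12 is uninformative. Partial or imperfect forms were not counted, so the windows are not shown to lack such sites. The Sp1 box GGGCGG was in 9 of the 12 and in 35.7% of all, the FoxO motif TGTTTAC was in 1, of Ccnd3, against 3.65% of all, and the cyclic AMP response element TGACGTCA was in 1, of Cdkn2b, against 1.79% of all. A match describes these letters only and is not evidence that a factor was bound.

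Among the INK4 inhibitors, Cdkn2c rose in DIAM and Cdkn2b fell in both genotypes, while Cdkn2a fell in KO and did not pass in WT. Cdkn2c encodes p18INK4c, an inhibitor that increases when several cell types differentiate. Its level was 12.2, 12.1, 12.2 and 14.4 CPM in WT DMEM and 23.9, 22.6, 25.1 and 26.3 CPM in WT DIAM. In KO cells it was 13.5, 12.7, 11.5 and 15.3 CPM in DMEM and 32.8, 29.4, 26.3 and 29.5 CPM in DIAM. All DIAM libraries exceeded all DMEM libraries, and the log2 fold change was 0.94 ± 0.09 in WT and 1.16 ± 0.09 in KO (edgeR, adjusted p = 2.67e-07 and 2.02e-08). Summed adipocyte markers, given above, were also higher in every DIAM library than in every DMEM library. So were summed endothelial markers (33.1 to 55.1 CPM in DMEM, 73.5 to 118 CPM in DIAM), while summed smooth muscle markers were lower. The part of any of these markers in the change of Cdkn2c was not tested.

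Cdkn2a encodes both p16INK4a and p19ARF from 1 locus, and a count per gene does not separate them. WT libraries held 24.3, 20.4, 26.0 and 20.6 CPM in DMEM and 20.3, 21.9, 18.4 and 15.9 CPM in DIAM, which overlap (log2 fold change -0.26 ± 0.17, edgeR, adjusted p = 0.218). KO libraries held 25.6, 24.5, 20.9 and 25.9 CPM in DMEM and 17.3, 10.6, 9.42 and 16.9 CPM in DIAM. The KO groups did not overlap, and Cdkn2a fell by 0.84 ± 0.17 there (edgeR, adjusted p = 0.000578). Its KO DIAM libraries thus fell into a higher pair (libraries 1 and 4) and a lower pair (libraries 2 and 3). Mesothelial markers (5 in the table, 0 called between genotypes in DIAM) summed to 505, 186, 174 and 566 CPM in KO DIAM, also higher in libraries 1 and 4. In KO DMEM their sums were 229, 61.2, 46.7 and 245 CPM, higher in the libraries of the same numbers. In WT DIAM they summed to 182, 102, 250 and 266 CPM, lowest in library 2, where Cdkn2a was highest. The part of these markers in the Cdkn2a levels was not tested. Cdkn2b encodes p15INK4b, an inhibitor known as a target of TGF-beta signalling. It was 46.5 ± 5.81 CPM in WT DMEM and 39.4 ± 2.87 in WT DIAM, and 47.9 ± 3.48 in KO DMEM and 36.8 ± 4.09 in KO DIAM. The fall was 0.38 ± 0.09 in KO (edgeR, adjusted p = 0.00231). In WT it was 0.24 ± 0.09 with overlapping groups (edgeR, adjusted p = 0.0406), and this call was lost in 8 of 26 alternatives, with adjusted p from 0.00485 to 0.161; leaving out library 1 of WT DMEM gave a log2 fold change of -0.16. The other 4 single libraries whose removal ended the call were library 3 of WT DMEM and libraries 1, 2 and 4 of WT DIAM.

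Of the CIP/KIP inhibitors among the 10, Cdkn1a fell in DIAM in both genotypes and Cdkn1b did not pass in either. Cdkn1a encodes p21, a p53 target that halts the cycle after damage, and had the highest mean per length of the 10 genes in every group. In WT it was 416, 362, 404 and 357 CPM in DMEM and 326, 263, 310 and 269 CPM in DIAM. In KO it was 387, 384, 392 and 344 CPM in DMEM and 314, 277, 273 and 295 CPM in DIAM. DIAM libraries were below DMEM libraries throughout, and Cdkn1a fell by 0.40 ± 0.08 in WT and by 0.38 ± 0.08 in KO (edgeR, adjusted p = 0.00038 and 0.000476). Cdkn1b, which encodes p27, the inhibitor that holds resting cells out of the cycle, was 68.1 ± 4.16 CPM in WT DMEM, 69.8 ± 3.25 in KO DMEM, 61.8 ± 3.03 in WT DIAM and 65.5 ± 4.92 in KO DIAM. Its log2 fold change was -0.14 ± 0.06 in WT (95% interval -0.27 to -0.01) and -0.09 ± 0.06 in KO (interval -0.22 to 0.04), and neither passed (edgeR, adjusted p = 0.0618 and 0.208). With upper-quartile scaling both passed, at -0.20 in WT and -0.19 in KO (adjusted p = 0.0139 and 0.0155); without library 3 of WT DMEM or library 3 of KO DIAM the WT value passed as well, at adjusted p = 0.0378 and 0.0437.

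**Figure D3:**
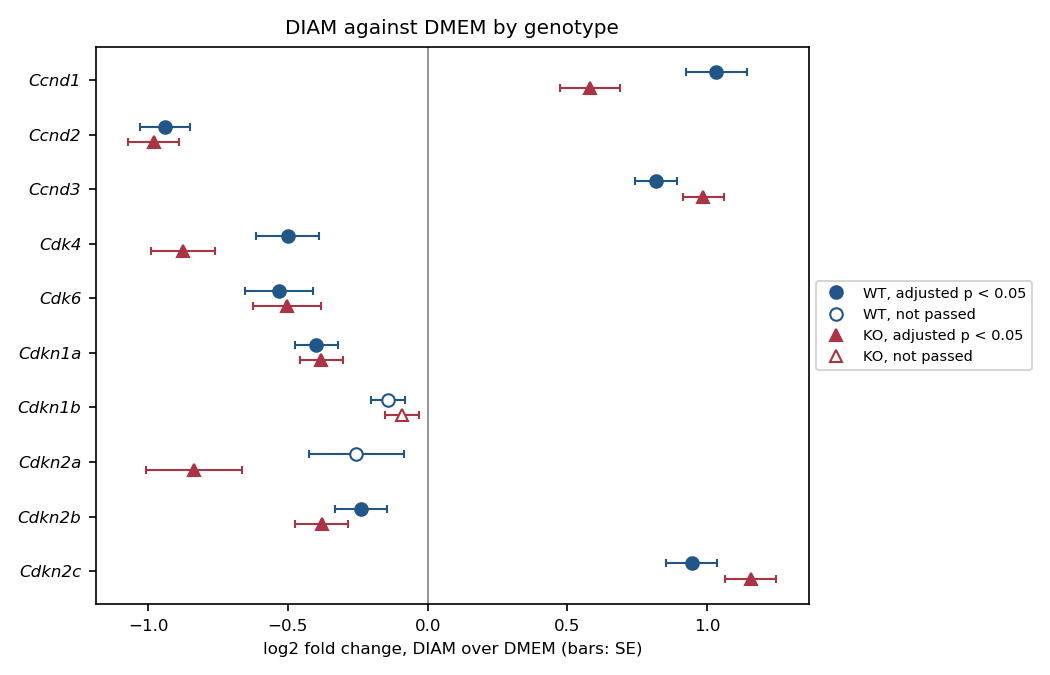
Log2 fold change of DIAM over DMEM (horizontal axis, bars are SE) for each gene in WT (circles) and KO (triangles); filled symbols have adjusted p under 0.05. Ccnd1, Ccnd3 and Cdkn2c lie to the right in both genotypes, between 0.58 and 1.16, and the filled symbols of the other genes lie to the left.

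In WT, 3 of the 10 genes rose in DIAM, where 27.6% of all genes tested did, and 5 fell, against 27.5% of all. In KO, 3 rose, against 29.8% of all, and 6 fell, against 30.8%. The shares of called genes are thus close to the background in the upward direction and somewhat above it in the downward direction, over 10 genes only. Their median log2 fold change was -0.25 in WT, with -0.01 over all genes tested, and -0.38 in KO, with -0.02 over all. Upper-quartile scaling moved the split of all called genes in KO from 4243 higher and 4380 lower to 3403 higher and 5608 lower, and the 9 genes called there kept their direction. Each member called in either genotype had the same direction under median-ratio and upper-quartile scaling.

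The genotypes were first compared in DMEM. None of the 10 genes passed, and 0% of all genes tested did (edgeR, adjusted p = 0.999842 for each of the 10; 438 of all genes had an unadjusted p under 0.05, and DESeq2 called 1 gene). Log2 fold changes of KO over WT lay between -0.17 for Cdk6 and 0.09 for Cdkn2a. Of the 95% intervals, the widest in each direction reached -0.43 (Cdk6) and 0.45 (Cdkn2a), so differences of up to that size lie within the intervals of those genes.

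In DIAM, Ccnd1 was the 1 member that passed between genotypes. The 4 KO libraries, at 282, 284, 323 and 292 CPM, all lay below the 4 WT libraries, at 475, 493, 393 and 335 CPM. Ccnd1 was 424 ± 73.7 CPM in WT and 295 ± 19.0 CPM in KO and fell by 0.52 ± 0.11 on the log2 scale (1.44-fold lower; edgeR, adjusted p = 0.0139). So 1 of the 10 genes was lower, where 4.95% of all genes tested were, and 0 were higher, where 3.43% were. The call was lost in 3 of 26 alternatives. They were the fit of only the DIAM groups (adjusted p = 0.0657), that with a replicate block (adjusted p = 0.181) and the fit without library 2 of KO DIAM (adjusted p = 0.053). Neither fit of the DIAM libraries alone thus kept the call. The 26 include fits that left out a DMEM library, which is in neither group compared. In the 3 fits that lost the call, 0 members were called. The count was 2 without library 3 or library 4 of WT DIAM, where Cdk4 passed too (adjusted p = 0.0392 and 0.024), and without library 4 of KO DIAM, where Cdkn2a did (adjusted p = 0.0465). Over all 26 alternatives the log2 fold change lay between -0.62 and -0.44, with adjusted p from 0.000243 to 0.181.

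Other quantities also differed between these 2 groups of libraries. Schwann cell markers (6 in the table, none at 0 in all libraries, 4 tested and 0 called between genotypes in DIAM) summed to 358, 561, 231 and 222 CPM in WT DIAM and to 21.7, 79.1, 116 and 130 CPM in KO DIAM, in the library order used for Ccnd1. Within WT DIAM, libraries 1 and 2 were thus the highest for both these markers and Ccnd1. Replication and mitosis genes (24 listed) summed to 513, 513, 441 and 422 CPM in WT DIAM and to 391, 383, 373 and 409 CPM in KO DIAM, again highest in libraries 1 and 2 of WT. Within KO, library 3 had the highest Ccnd1 and the lowest of these sums. The largest part of the sums was Rrm1, at 140 ± 11.9 CPM in WT DIAM and 130 ± 9.80 in KO DIAM. Rrm2 was 63.6 ± 10.3 and 46.4 ± 6.92 CPM. Both genes were higher in DIAM than in DMEM. Adipocyte markers (5 of 6 in the table, 1 called, Plin1, higher in KO) summed to 1818, 1332, 2012 and 2071 CPM in WT DIAM and to 2908, 2737, 1945 and 2594 CPM in KO DIAM, so the groups overlapped and library 2 of WT, with the highest Ccnd1, was the lowest. In DMEM the Schwann cell sums were 22.4 to 71.2 CPM in WT and 17.1 to 103 CPM in KO. The part of these markers in the Ccnd1 difference was not tested.

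Of the other 9 genes, 3 had an unadjusted p under 0.05 in DIAM without passing the adjustment. Cdk4 was 128 ± 28.0 CPM in WT and 100.2 ± 5.20 in KO, a log2 fold change of -0.35 ± 0.11 (edgeR, adjusted p = 0.0706), with overlapping groups. For Cdkn2a the values were 19.1 ± 2.56 and 13.6 ± 4.10 CPM, also overlapping, and the log2 fold change was -0.50 ± 0.17 (edgeR, adjusted p = 0.084). Cdkn2c was 24.5 ± 1.59 CPM in WT and 29.5 ± 2.63 in KO, a log2 fold change of 0.27 ± 0.09 (edgeR, adjusted p = 0.0714); its lowest KO library, at 26.32 CPM, lay just above its highest WT library, at 26.27 CPM. DESeq2 called these 3 as well as Ccnd1, at adjusted p = 0.0342 for Cdk4, 0.0431 for Cdkn2a and 0.0349 for Cdkn2c. In the authors' deposited table Ccnd1 had a log2 fold change of -0.52 and adjusted p = 0.0013, and Cdkn2c 0.28 and adjusted p = 0.028. The remaining 6 genes had log2 fold changes between -0.14 (Cdk6) and 0.15 (Ccnd3).

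**Figure D4:**
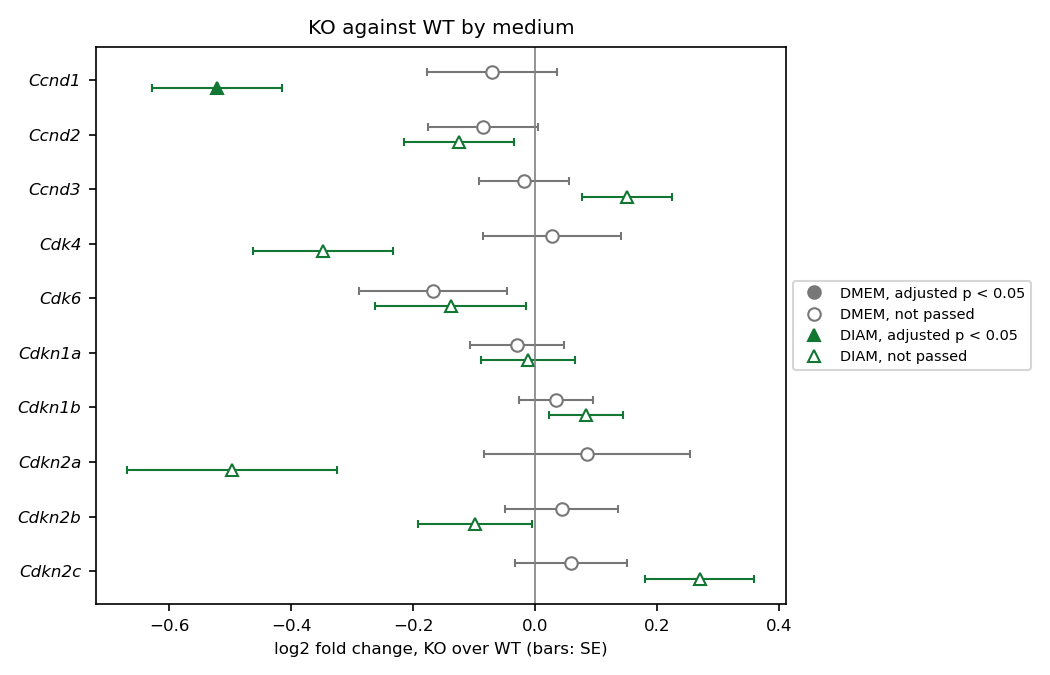
Log2 fold change of KO over WT (horizontal axis, bars are SE) for each gene in DMEM (circles) and DIAM (triangles); filled symbols have adjusted p under 0.05. The 1 filled symbol is Ccnd1 in DIAM at -0.52, and all values in DMEM lie between -0.17 and 0.09.

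Whether the genotype difference depended on the medium was tested as an interaction. No member passed, and 0% of all genes tested did (edgeR; 2255 of all genes had an unadjusted p under 0.05, and DESeq2 called 225). For Ccnd1 the interaction was -0.45 ± 0.15 on the log2 scale (edgeR, unadjusted p = 0.00887, adjusted p = 0.203). Cdk4 had -0.38 (adjusted p = 0.281) and Cdkn2a -0.58 (adjusted p = 0.267). The difference of Ccnd1 in DIAM is therefore not shown to differ from that in DMEM.

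Ordered by group mean of level per length, Cdkn1a was first in all groups. In WT DMEM it was followed by Ccnd2, Cdk4, Ccnd1, Ccnd3, Cdkn2b, Cdkn2a, Cdkn1b, Cdkn2c and Cdk6, and KO DMEM had the same order. Neighbours whose libraries overlapped in WT DMEM were Cdkn1a (185 ± 14.3 CPM per kb) with Ccnd2 (167 ± 20.6), Ccnd1 (55.4 ± 5.79) with Ccnd3 (49.7 ± 2.32), and Cdkn2b (33.4 ± 4.18) with Cdkn2a (25.5 ± 3.12). In DIAM the places behind Cdkn1a were taken by Ccnd1, Ccnd3 and Ccnd2 in WT and by Ccnd3, Ccnd2 and Ccnd1 in KO, with Cdk4 next in both. In WT DIAM, Ccnd3 (87.7 ± 7.59 CPM per kb) and Ccnd2 (87.1 ± 7.60) overlapped, and Ccnd1 (113 ± 19.7) overlapped with both. Ccnd1 also overlapped there with Cdkn1a (140 ± 14.7), and in library 2 it was the higher, at 132 against 127 CPM per kb. The order in WT DIAM is therefore that of the means only. In KO DIAM, Ccnd3 (97.4 ± 3.57 CPM per kb) lay above Ccnd2 (79.9 ± 2.05) in every library, while Ccnd2 and Ccnd1 (78.9 ± 5.07) overlapped.

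For the 3 genes with the largest mean change between media, the most similar profiles over the 16 libraries were sought among 10545 genes, by the root mean square difference of centred log2 levels. Nearest to Cdkn2c were Ech1 (0.0894) and Acadl (0.0941), both enzymes of fatty acid oxidation, and Ppp2r5a (0.0985), a subunit of protein phosphatase 2A. Ccnd2 was nearest to Rcn2 (0.0972), Prmt2 (0.101) and Rtn4 (0.101). Ccnd3 was nearest to Abat (0.0702), Sptbn1 (0.0706) and Tax1bp1 (0.0768). With most of the variance between media, a small difference here chiefly means a medium change of the same size.

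The wider pathway was read from lists of named genes. Of 27 other genes of the G1 to S machinery, 6 rose and 10 fell in DIAM in WT, and 6 rose and 12 fell in KO, with median log2 fold changes of -0.04 and -0.11. These counts, and those of the next 2 lists, are to be read against the shares of all genes tested given above, 27.6% and 27.5% in WT and 29.8% and 30.8% in KO. The change of Cdkn1c, which encodes the remaining CIP/KIP inhibitor, p57, exceeded that of every gene of the 10. It was 2.05 ± 0.595 CPM in WT DMEM and 168 ± 15.99 in WT DIAM, and 2.86 ± 1.74 in KO DMEM and 188 ± 7.90 in KO DIAM, with log2 fold changes of 6.37 ± 0.31 and 6.03 ± 0.30 (edgeR, adjusted p = 3.05e-10 and 3.47e-10). In DMEM it was thus the lowest of the 3 CIP/KIP genes in count, and in DIAM it lay between Cdkn1a and Cdkn1b. Cdkn2d, the remaining INK4 gene, was 12.5 CPM in WT DMEM and 12.6 in WT DIAM (edgeR, adjusted p = 0.937). E2f6, which encodes a repressing E2F factor, rose from 42.7 ± 3.10 to 103 ± 4.91 CPM in WT. Cks1b, a cofactor in the breakdown of p27, and E2f3 fell, by 0.70 and 0.34 on the log2 scale.

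Of 22 genes that regulate the 10, 10 rose and 5 fell in each genotype, with medians of 0.18 in WT and 0.24 in KO. Klf4, a factor known to activate Cdkn1a, rose from 49.3 ± 2.59 to 139 ± 4.67 CPM in WT, and Ets1 rose by 1.14 ± 0.05 on the log2 scale. Smad3, which carries the TGF-beta signal, fell from 67.8 ± 1.78 to 23.7 ± 2.15 CPM. Of 20 p53 targets other than Cdkn1a, 6 rose and 8 fell in WT and 7 rose and 8 fell in KO. Plk2 fell from 119 ± 10.99 to 33.9 ± 4.51 CPM in WT, Fas from 49.8 ± 7.01 to 17.4 ± 1.44 CPM and Gdf15 from 15.9 ± 0.628 to 6.59 ± 0.802 CPM, while Pmaip1 rose from 36.9 ± 7.09 to 87.8 ± 12.7 CPM.

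Of 24 replication and mitosis genes, 2 rose and 18 fell in WT (median log2 fold change -0.72), and 2 rose and 21 fell in KO (median -1.06). Of all genes tested, 27.6% rose and 27.5% fell in WT (median -0.01), and 29.8% rose and 30.8% fell in KO (median -0.02). The 2 that rose in both genotypes were Rrm1 and Rrm2. Rrm2, the gene of smallest p in this list, went from 28.9 ± 1.81 to 63.6 ± 10.3 CPM in WT (edgeR, adjusted p = 9.5e-07). Plk1, a mitotic kinase, fell from 7.63 ± 1.02 to 4.04 ± 0.480 CPM in WT, and Cdk1 from 23.5 ± 1.22 to 14.03 ± 2.15 CPM. Between genotypes in DIAM, 16 of these 24 were lower in KO, where 4.95% of all genes tested were, and 0 were higher, with a median of -0.55 and 0.00 over all genes. The count of 16 was 0 when only the DIAM groups were fitted, and so were the counts of the other 3 lists given next. The replication and mitosis count was 8 without library 1 of WT DIAM and 5 without library 2, and it was 5, 3 and 10 without library 1, 2 or 3 of KO DIAM. The other lists had fewer calls between genotypes in DIAM: 1 gene rose and 3 fell among the 27 of the G1 to S machinery (Rbl2 higher; Ccne1, Cdk2 and E2f8 lower), 2 rose and 2 fell among the 22 regulators, and 2 rose and 3 fell among the 20 p53 targets. The G1 to S count of 4 was 0 or 1 without library 1 or 2 of WT DIAM or library 1, 2 or 3 of KO DIAM. Without any 1 of those 5 libraries the regulator count of 4 was 1 or 2, and the p53 target count of 5 was 1 or 2; it was 3 without library 3 of WT DIAM and 2 without library 4 of KO DIAM. Called regulators numbered 7 with DESeq2 and 7 in the authors' deposited table. In DMEM, 0 genes of any list passed between genotypes, and 0 passed for the interaction (edgeR). The counts over all genes at an unadjusted p under 0.05 and by DESeq2 stand above. For the interaction, DESeq2 called 2 replication and mitosis genes, 2 p53 targets and 1 regulator, all with negative values. The authors' deposited table had the same numbers of calls in these lists, also all negative.

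**Figure D5:**
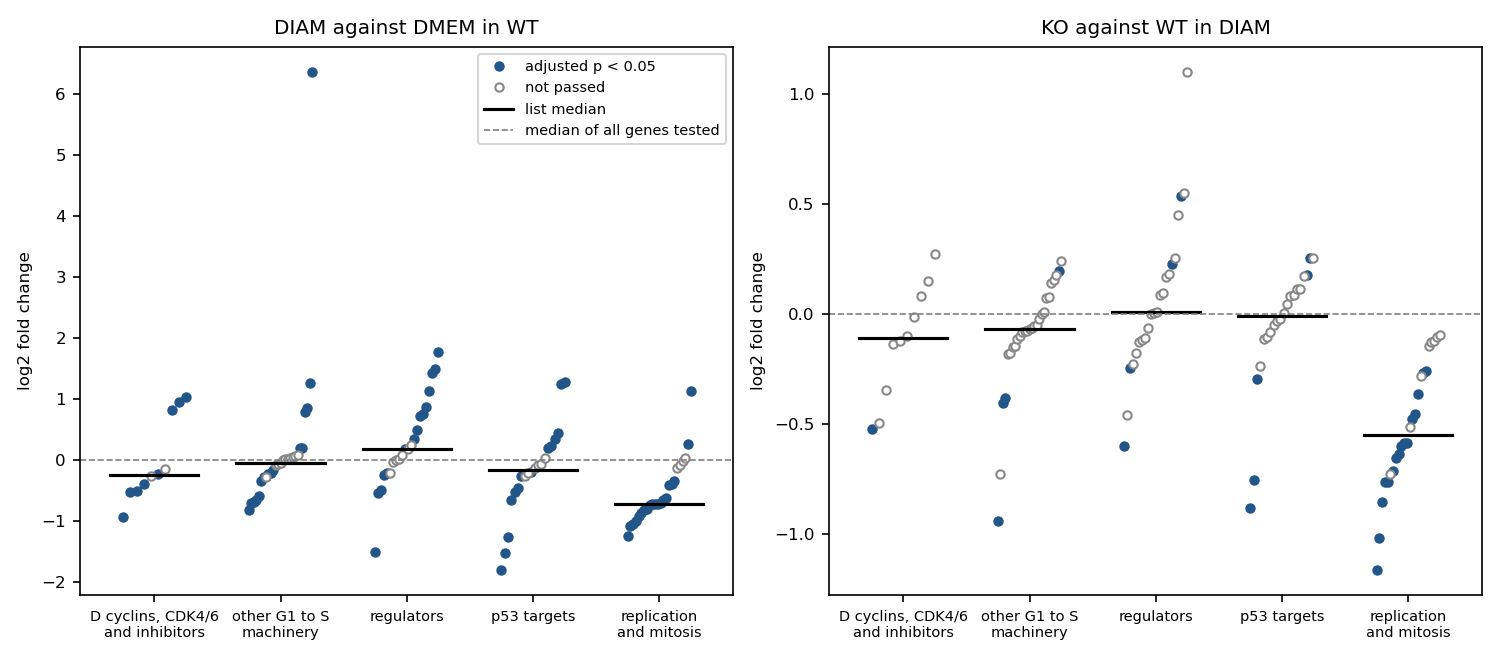
Log2 fold change of every gene of the 5 lists (vertical axis; points, filled where adjusted p is under 0.05; black line, list median; dashed line, median of all genes tested), for DIAM over DMEM in WT (left) and KO over WT in DIAM (right). The point at 6.37 on the left is Cdkn1c, and the list medians of replication and mitosis genes are -0.72 and -0.55.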

How the data were processed

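Total RNA was prepared with an unstranded TruSeq kit and rRNA depletion, per the labels' protocols; the series text names 4 biological replicates, and the library protocol triplicates. Reads were checked with FastQC and quantified with Salmon 1.9.0, and DESeq2 1.46.0 in R 4.4.2 was used on GRCm39 (mm39), per the submitters' processing notes. The deposited sample columns are called TPM in the labels, but their sums differ between libraries and they hold estimated counts per gene, so they were treated as estimated counts and rounded. The authors' mean signal over libraries (baseMean), their log2 fold changes and their p-values come from the same deposited table; its comparisons served as an alternative, and it holds none of the media within KO.

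With R 4.3.3, genes at 1 CPM or more in at least 4 of 16 libraries were kept (at least 99.8% of counts). edgeR 4.0.16 fitted 1 quasi-likelihood model of the 4 groups with TMM scaling (12 residual degrees of freedom), two-sided, Benjamini-Hochberg adjusted over 14217 genes at 0.05. SE is the log2 fold change over the root of F, and 95% intervals are approximate. DESeq2 1.42.0 and limma 3.58.1 served as alternatives, with other scaling, filters, samples and a replicate block. The procedure was tested on simulated data. Libraries of a group differed by more than counting noise (chi-square per degree of freedom 11.3 to 71.2), so none was a copy.

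The members and lists were chosen with earlier results of these data known. All members are described; up to 4 genes of each other list are named, by smallest p in the WT medium comparison at 5 CPM or more, and 3 similar genes for each of 3 members. Cdkn2d, Rrm1, the cell type markers named singly, and the list genes named as changed between genotypes, were singled out after their values were seen. The reference at hand is GRCm38, so no gene coordinates of the authors' build are printed; promoter coordinates are of GRCm38.p6.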

Additional observations from a re-analysis of the deposited data

Results flagged for a closer look

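In 40 groups of 4 libraries (10 genes by 4 groups), 3 held a library farther from the others than Dixon's 95% limit allows; chance alone gives about 1 in 20. Ccnd2 in WT DMEM was 864.9 CPM in library 4 and 1097 to 1138 CPM in the other 3. Cdkn2c in the same library was 14.4 CPM, with 12.1 to 12.2 CPM in the others. Ccnd3 in KO DIAM was 194.5 CPM in library 4 and 208 to 211 CPM in the others. Without these libraries the calls of the 3 genes between media did not change.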

How the results depend on the processing

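Requiring a log2 fold change of at least 1 left 1 called member in WT (Ccnd1) and 1 in KO (Cdkn2c) between media, and 0 between genotypes in DIAM. For the genotypes in DIAM the main count of 1 became 4 with DESeq2, 2 in the authors' deposited table and 0 when only the groups compared were fitted; leaving out 1 library gave 0 to 2. Over all genes that comparison had 1191 calls, 1873 with DESeq2, 1810 in the authors' deposited table, 167 at the size threshold and 0 with only the groups compared; it had 299 and 316 calls without libraries 1 and 2 of WT DIAM and 275 and 178 without libraries 1 and 2 of KO DIAM. The size threshold left 2140 genes between media in WT and 2432 in KO. In DMEM, DESeq2 called 1 gene between genotypes and the authors' deposited table had 2 calls, and there were 2 calls without library 1 of KO DMEM and 1 without library 3 of WT DIAM; the interaction had 225 calls with DESeq2, 234 in the authors' deposited table and 1 without library 1 of KO DMEM. The cause of these differences was not tested.

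Library numbers are shared between groups, but the labels do not tie a number to an animal, so the numbers were not taken as pairs. No pair of groups had all 4 same-numbered r of deviations over 0.1, and not every library correlated best with its own number. Between media, same-numbered r ran from 0.00237 to 0.290 in KO and from -0.0617 to 0.223 in WT. Different-numbered r ran from -0.299 to 0.244 in KO and from -0.204 to 0.241 in WT. Same-numbered r between genotypes ran from -0.201 to 0.0999 in DMEM and from -0.184 to -0.0152 in DIAM. Mesothelial marker sums were highest in libraries 1 and 4 of KO in both media, at 229 and 245 CPM in DMEM. In WT they were highest in libraries 3 and 4 in both media. Schwann cell marker sums in KO were highest in library 2 in DMEM (103 CPM) and in library 4 in DIAM (130 CPM). These values do not settle whether same-numbered libraries of a genotype are pairs. Over all genes, a replicate block gave 8008 calls between media in WT and 8775 in KO, against 7839 and 8623 without it. With a replicate block, 8 members were called between media in WT, 9 in KO and 0 for the interaction. Between genotypes 0 were called in DMEM and 0 in DIAM, where 0 of all genes and 0 of each list were called too. In DIAM Ccnd1 had a log2 fold change of -0.51 (edgeR, adjusted p = 0.181). For the genotypes that fit used only the groups compared and paired WT and KO libraries of the same number. Fitting only the DIAM groups without a block also gave 0 members and 0 of all genes. These genotype counts thus do not isolate the effect of the block.

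Directions that reversed belonged to values that never passed. With upper-quartile scaling the interaction was -0.0103 for Cdk6 and -0.0228 for Cdkn1a. Leaving out 1 library, KO over WT in DMEM ran from -0.0637 to 0.0209 for Cdkn1a, -0.0628 to 0.0306 for Ccnd3, -0.0273 to 0.10 for Cdk4, -0.0204 to 0.13 for Cdkn2b and -0.0169 to 0.13 for Cdkn2c. In DIAM it ran from -0.0527 to 0.0529 for Cdkn1a and from -0.21 to 0.00132 for Cdk6, and the interaction from -0.0746 to 0.17 for Cdk6, -0.0286 to 0.0771 for Cdkn1a and -0.088 to 0.0455 for Ccnd2. The lowest level of a member in any library was 9.42 CPM.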
